A study of Mus musculus with 6 samples.

Results

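Lxn, Zfp428, Nrros, Gls2, Nat8f3 and Uchl1 were 6 of the 18614 genes measured in RNA from the subventricular zone (SVZ) of the mouse brain. They were selected on their measured values: the summed estimated counts of each were higher in all 3 libraries labelled KO than in all 3 wild-type (WT) libraries. That choice used the contrast between the groups, so the differences given for these 6 genes are descriptions and carry no test. By the labels, the WT libraries came from Zhx2+/+ mice and the others from Zhx2Δ/Δ mice, a notation for a homozygous deletion of Zhx2, a zinc finger and homeobox transcription factor gene. Zhx2 RNA was not lower in the KO-labelled libraries, as its values below show, so the deletion is a label here and not an observation. The genotype tags of KO 2 and KO 3 name ZHX3 and ZHX4, while their titles name ZHX2. The sources used here give no strain, age, sex, batch, pooling of animals or details of how, where and to what extent Zhx2 was deleted. Whether each library stands for an animal of its own is also not said, so a p-value here reflects the spread among 6 libraries, and that spread may be technical.

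The SVZ lines the lateral ventricle and holds neural stem cells, the progenitors and neuroblasts they give rise to, ependymal cells, glia and vessels. It borders on the striatum and on the choroid plexus, the epithelium that makes cerebrospinal fluid. The 6 genes have unlike roles. Lxn encodes latexin, an inhibitor of metallocarboxypeptidases that is also known to restrain the number of blood stem cells. Gls2 encodes the liver-type glutaminase, a mitochondrial enzyme that turns glutamine into glutamate and a known target of p53. Nat8f3 belongs to a family of N-acetyltransferase genes that lie side by side in the genome. Uchl1 encodes a ubiquitin C-terminal hydrolase that is abundant in neurons and helps to keep the pool of free ubiquitin. Nrros encodes a leucine-rich membrane protein of microglia and macrophages that anchors latent TGF-beta at the cell surface, and was named for limiting reactive oxygen species. Zfp428 encodes a zinc finger protein.

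The genes lie on 6 different chromosomes. RefSeq (GRCm38.p6, the sequence of mm10) places Lxn on chromosome 3 from 67457999 to 67463907 on the minus strand, Zfp428 on chromosome 7 from 24504548 to 24515682 on the plus strand, and Nrros on chromosome 16 from 32142785 to 32165594 on the minus strand. Gls2 is on chromosome 10 from 128194635 to 128210004 on the plus strand, Nat8f3 on chromosome 6 from 85760631 to 85765767 on the minus strand, and Uchl1 on chromosome 5 from 66676121 to 66687234 on the plus strand. The RefSeq promoter table matched 5 of the 6 genes, with Gls2 the exception. The 250 bases before the start were searched on both strands for 6 motifs. CCAAT is the NF-Y box, NF-Y being a known partner of Zhx proteins, and was found in 0 of the 5 windows and in 33.8% of all 32851 promoter windows of that length. TATAAA, the TATA box, was in 0 of the 5 and in 12.4% of all windows. CACGTG, an E-box, was in 0 of the 5 and in 6.02% of all. The other motifs were GGGCGG, known as the GC box, then TGGGAA, known as the Rbpj core, and last CTTTGNT, known as the Tcf/Lef core. Uchl1 and Zfp428 held none of the 6 motifs. Shown are 4 windows, that of Zfp428 for a further motif described below. They run 5′ to 3′ on the gene's own strand, with the motif letters in capitals. Each ends at the base before the transcript start that the promoter table uses. For Zfp428 and Nat8f3 that start lies inside the RefSeq gene span given above.
Lxn, chr3:67463908-67464157, minus strand: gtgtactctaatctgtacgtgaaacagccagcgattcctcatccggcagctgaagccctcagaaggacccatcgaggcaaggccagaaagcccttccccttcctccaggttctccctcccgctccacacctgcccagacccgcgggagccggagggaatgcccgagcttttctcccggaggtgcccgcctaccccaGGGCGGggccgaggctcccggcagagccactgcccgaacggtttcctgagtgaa
Nat8f3, chr6:85765745-85765994, minus strand: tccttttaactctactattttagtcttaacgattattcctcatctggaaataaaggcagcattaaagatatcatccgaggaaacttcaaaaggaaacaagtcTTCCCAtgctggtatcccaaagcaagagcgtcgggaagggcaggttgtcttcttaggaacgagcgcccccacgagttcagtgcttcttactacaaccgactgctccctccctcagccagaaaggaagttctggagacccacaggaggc
Nrros, chr16:32165595-32165844, minus strand: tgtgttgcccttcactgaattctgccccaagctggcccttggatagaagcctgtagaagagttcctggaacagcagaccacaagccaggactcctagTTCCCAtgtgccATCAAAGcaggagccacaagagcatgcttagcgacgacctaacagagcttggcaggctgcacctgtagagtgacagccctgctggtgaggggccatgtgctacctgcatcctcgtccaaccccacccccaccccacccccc
Zfp428, chr7:24506837-24507086, plus strand: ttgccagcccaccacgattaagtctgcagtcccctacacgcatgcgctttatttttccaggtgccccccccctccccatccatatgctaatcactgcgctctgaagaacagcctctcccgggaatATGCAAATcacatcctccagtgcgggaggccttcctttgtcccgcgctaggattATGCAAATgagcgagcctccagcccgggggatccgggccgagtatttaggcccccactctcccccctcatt
The capitals in Lxn mark GGGCGG, found in 32.7% of all windows. Those in Nat8f3 mark TGGGAA on the opposite strand (in 21.6% of windows), and those in Nrros mark TGGGAA and, beside it, the Tcf/Lef core, both on the opposite strand (the latter in 16.0% of windows). The capitals in Zfp428 mark 2 copies of ATGCAAAT, the octamer bound by POU factors, a motif added to the search after this sequence had been seen. Of the 32851 windows, 32 (0.0974%) held 2 or more copies of it. CpG pairs were at 0.633, 0.620, 0.581 and 0.471 of the number expected from base content in the windows of Lxn, Zfp428, Nat8f3 and Uchl1, and at 0.145 in that of Nrros, where the median window had 0.374. These matches describe the sequence and are not evidence of binding.

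Libraries held between 17037152 and 17685906 estimated counts, and 15126 genes, the 6 among them, passed the filter on low counts. edgeR's quasi-likelihood test with Benjamini-Hochberg adjustment called 0 of them in either direction, while 406 (2.68%) were higher and 966 (6.39%) lower at an unadjusted p under 0.05. DESeq2 called 6 higher (0.0397% of the genes tested) and 305 lower (2.02%). The 6 called higher are not the 6 chosen genes: Zhx2 was among them and Gls2 was not. The others were Lxn, Zfp428, Nrros, Nat8f3 and Uchl1, for which a call restates the choice and is no test. On simulated counts both tools made more false calls than the threshold allows, DESeq2 more than edgeR. Zhx2 itself was not lower in the KO-labelled libraries: its CPM (counts scaled to library size by the TMM method) were 39.8, 40.5 and 38.2 in WT 1 to 3, compared with 67.1, 57.8 and 56.3 in KO 1 to 3. Zhx2 RNA was thus higher in every KO-labelled library than in every WT library, as were 8.00% of all genes. Whether the Zhx2 gene was deleted was not tested, since summed counts do not show the allele. Each direction given below compares libraries by their labels alone. A set of 15 choroid plexus markers summed to between 3685 and 17388 CPM in WT, against between 56.0 and 206 CPM in the libraries labelled KO, and all 15 had negative log2 fold changes. In bulk RNA of this kind, a change in the number of cells of a type and a change in RNA per cell cannot be told apart.

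Lxn had the smallest edgeR p among genes higher in every KO-labelled library than in every WT library. That place comes from the contrast used to choose it, so it is a description and no test. Its level was 34.1, 38.1 and 38.6 CPM in WT 1 to 3, compared with 57.8, 59.8 and 56.5 CPM in KO 1 to 3. The libraries formed 2 tight and well separated groups, and the lowest KO-labelled value was 1.46 times the highest WT value. The means were 36.9 ± 2.46 and 58.1 ± 1.69 CPM (SD, n = 3), which gives 0.65 as the log2 fold change (SE 0.09), or 1.57-fold. The table gives Lxn a single transcript, with between 630 and 665 counts in WT, against between 962 and 1039 in the libraries labelled KO. Carboxypeptidase genes were listed together with the latexin homolog Rarres1. The list is broad, and not all of its enzymes are known targets of latexin. Of these 17 genes, 11 were tested, and 0 passed in edgeR in either direction (2 lower at an unadjusted p under 0.05, 0 called by DESeq2). Of the 11, 9 had a negative log2 fold change and the median was -0.30 (-0.53 without WT 2), against 0.02 over all genes. The summed level of the list ran the other way, from 1855 to 2396 CPM in WT and from 2436 to 2746 CPM under the KO label. Most of it was Cpe, a carboxypeptidase gene of peptide hormone processing named here outside the rule, at 1990.4 ± 312 and 2420.2 ± 132 CPM (SD, n = 3), with 0.28 as its log2 fold change (edgeR adjusted p = 0.630). The lysosomal carboxypeptidase gene Cpq was at 25.9 ± 8.44 CPM over the WT libraries and 13.9 ± 2.06 over those labelled KO (SD, n = 3). The difference of -0.89 on the log2 scale (SE 0.26) had an edgeR adjusted p of 0.377. Cpa4 (-0.93) and Cpd (-0.30) had the next smallest p in the list. Rarres1, which lies next to Lxn, was at 0.985 ± 0.353 CPM over the WT libraries and 1.38 ± 0.126 over those labelled KO, near 1 CPM in both.

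Gls2 was at 11.5, 12.5 and 13.9 CPM in WT 1 to 3, compared with 20.7, 18.2 and 17.5 CPM in KO 1 to 3. KO 1 was the highest library and WT 1 the lowest, and the lowest KO-labelled value was 1.26 times the highest WT value. The means were 12.6 ± 1.23 and 18.8 ± 1.70 CPM (SD, n = 3), which gives 0.57 as the log2 fold change (SE 0.13). The list of other genes of glutamine and glutamate handling held 32 genes, all tested. In edgeR 0 passed, with 1 higher and 2 lower at an unadjusted p under 0.05, and DESeq2 called 1, which was lower. Signs were mixed, with 19 positive and 13 negative, and the median log2 fold change was 0.07, against 0.02 over all genes. Without overlap between the groups, 7 of the 32 were higher (as were 8.00% of all genes) and 3 lower (as were 8.74%). The median of the list was 0.02 without WT 2, 0.03 without WT 1, 0.04 without KO 1, 0.05 without KO 3 and 0.00 with KO 1 alone. Slc17a6, a vesicular glutamate transporter gene, had the smallest p of the list. Its level was 56.8, 29.5 and 40.8 CPM in WT 1 to 3, compared with 7.07, 12.8 and 23.7 CPM in KO 1 to 3, with no overlap between the groups. Its log2 fold change of -1.54 (SE 0.46) had an adjusted p of 0.398 in edgeR and of 0.0186 in DESeq2. Glud1, which encodes glutamate dehydrogenase, had a log2 fold change of 0.26 (SE 0.10, edgeR adjusted p = 0.497), and the glutamine transporter gene Slc38a3 had one of -0.45 (SE 0.18, edgeR adjusted p = 0.521).

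Nat8f3 varied most among the KO-labelled libraries. Its level was 8.39, 8.58 and 10.1 CPM in WT 1 to 3, compared with 18.7, 13.2 and 14.2 CPM in KO 1 to 3. KO 1 stood above the other 2 KO-labelled libraries, and the lowest of these was 1.31 times the highest WT library. The means were 9.02 ± 0.933 and 15.4 ± 2.91 CPM (SD, n = 3). The log2 fold change was 0.77 (SE 0.17), and 0.60 without KO 1. Reads of this gene are hard to tell from those of its neighbours. Of the stretches of 50 bases, the read length given in the labels, in its main transcript, 85.2% also occur in GENCODE transcripts of other genes. Those were chiefly Nat8f7 and Nat8f6, its nearest tested neighbours. The split of counts among these 3 genes is therefore an estimate. Their sum was 11.0, 10.9 and 14.4 CPM in WT 1 to 3, compared with 23.9, 17.5 and 17.4 CPM in KO 1 to 3. Most of that sum is Nat8f3, whose values chose it. Nat8f6 and Nat8f7 without it summed to 2.65, 2.28 and 4.35 CPM across WT 1 to 3 and to 5.24, 4.26 and 3.23 CPM across KO 1 to 3, and here the groups overlapped. On its own Nat8f6 was at 1.46 ± 0.516 CPM over the WT libraries and 2.18 ± 0.357 over those labelled KO, and Nat8f7 at 1.63 ± 0.711 and 2.06 ± 0.698 CPM (SD, n = 3). The family list, which adds the other Nat8 genes and genes of N-acetylaspartate handling, had 14 tested members. Of these 7 had positive and 7 negative log2 fold changes, with a median of 0.02, the same as over all genes to that precision. This median had no stable sign, at -0.04 without WT 2, -0.05 with a filter of 5 CPM and 0.12 without WT 1. In edgeR 0 passed (0 at an unadjusted p under 0.05 and 0 called by DESeq2). Slc13a3, a carboxylate transporter gene, had the smallest p (log2 fold change 0.67, SE 0.32, edgeR adjusted p = 0.600), and Nat8l, which encodes the enzyme that makes N-acetylaspartate, was at 241 ± 21.3 and 273 ± 17.3 CPM (SD, n = 3).

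Uchl1 had the most counts of the 6 and the smallest fold change. Its level was 388, 350.5 and 383 CPM in WT 1 to 3, compared with 488, 513 and 467 CPM in KO 1 to 3, with 1.20 between the lowest KO-labelled and the highest WT library. The means were 374 ± 20.4 and 489.7 ± 23.1 CPM (SD, n = 3), which gives 0.39 as the log2 fold change (SE 0.10), or 1.31-fold. An antisense gene, Uchl1os, overlaps 18.1% of its exon bases, and whether the counting used strand is not given in the sources used here. Of 13 other ubiquitin hydrolase and ubiquitin genes, 12 were tested. All 12 had positive log2 fold changes, with a median of 0.15 against 0.02 over all genes, where 53.4% of all genes had a positive value. None of these passed in edgeR (1 higher at an unadjusted p under 0.05, 0 called by DESeq2). Otub1, a deubiquitinase gene, had the smallest p (log2 fold change 0.27, SE 0.10, edgeR adjusted p = 0.498), followed by Usp5 (0.20). The closest relatives Uchl3 and Uchl5 had log2 fold changes of 0.09 and 0.24, both named after their values were seen. Among pan-neuronal markers, 12 of 14 had positive log2 fold changes, 5 of the list being higher without overlap between the groups (as were 8.00% of all genes), and their summed level was between 6427 and 8231 CPM in WT, against between 8022 and 8453 CPM in the libraries labelled KO. WT 2 was lowest both for Uchl1 and for that sum. KO 2, the highest library for Uchl1, had the lowest sum of the KO-labelled libraries. No marker of the list was at 0 in all libraries. The part of neuronal content in the level of Uchl1 was not tested.

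Nrros had the largest fold change of the 6 and the fewest counts, with 97, 111 and 110 in WT 1 to 3, compared with 181, 216 and 159 in KO 1 to 3. These correspond to 5.25, 6.66 and 6.38 CPM in WT and 10.7, 12.4 and 9.34 CPM in KO-labelled libraries. The lowest KO-labelled value was 1.40 times the highest WT value. The means were 6.10 ± 0.747 and 10.8 ± 1.56 CPM (SD, n = 3), which gives 0.83 as the log2 fold change (SE 0.18), or 1.77-fold. Of 16 microglia markers, 15 had positive log2 fold changes (as had 53.4% of all genes), with a median of 0.28, and 6 were higher without overlap between the groups (as were 8.00% of all genes). Their summed level was 585, 708 and 675 CPM in WT 1 to 3, compared with 799, 858 and 723 CPM in KO 1 to 3. The 6 libraries took the same order in this sum as in Nrros, from WT 1 as the lowest to KO 2 as the highest. Tmem119, which defines microglia, was present in every library at between 16.5 and 29.4 CPM, and no marker of the list was at 0 in all libraries. Markers of border macrophages, of which 4 of 6 were tested and all 4 had positive log2 fold changes, summed to between 7.04 and 13.6 CPM in WT and between 11.7 and 18.1 CPM in KO-labelled libraries. The part of microglial content in the level of Nrros was not tested.

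Other genes of TGF-beta activation and of the NADPH oxidase were listed as the setting in which the Nrros protein works. All 21 on the list were tested and 0 passed in edgeR, with 0 higher and 4 lower at an unadjusted p under 0.05, and DESeq2 called 1, which was lower. The median was 0.18, against 0.02 over all genes, with 12 positive and 9 negative values. It was 0.05 without KO 2, 0.11 without either WT 1 or WT 2, and 0.06 with KO 1 alone. The summed level ran the other way, from 613 to 709 CPM in WT and from 569 to 580.4 CPM under the KO label. Tgfb2, which encodes a TGF-beta ligand, was the gene that DESeq2 called. It was at 54.6 ± 22.0 CPM over the WT libraries and 21.2 ± 3.40 over those labelled KO (SD, n = 3), and the difference of -1.36 on the log2 scale (SE 0.30) had an adjusted p of 0.245 in edgeR and 0.00112 in DESeq2. The receptor gene Tgfbr2 was at 36.9 ± 6.90 and 24.5 ± 2.22 CPM (log2 fold change -0.59, SE 0.16, edgeR adjusted p = 0.339). Itgb8, an integrin subunit gene that takes part in releasing active TGF-beta, was at 18.9 ± 2.40 and 9.13 ± 3.92 CPM (-1.05, SE 0.31, edgeR adjusted p = 0.391). Tgfb1, which encodes the ligand that Nrros anchors and is named here outside the rule, was at 10.2 ± 1.69 and 14.0 ± 4.21 CPM, and its edgeR adjusted p was 0.654. The choroid plexus markers, whose sums are given above, were lower in the same libraries as Tgfb2, Tgfbr2 and Itgb8, and their part in these 3 genes was not tested.

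Zfp428 was at 28.3, 23.6 and 26.3 CPM in WT 1 to 3, compared with 36.8, 40.3 and 38.1 CPM in KO 1 to 3. The lowest KO-labelled value was 1.30 times the highest WT value. The means were 26.1 ± 2.35 and 38.4 ± 1.77 CPM (SD, n = 3), which gives 0.56 as the log2 fold change (SE 0.11), or 1.47-fold. GENCODE places a gene on the opposite strand over 17.7% of its exon bases, so that without strand some of its counts could belong to either gene.

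**Figure D1:**
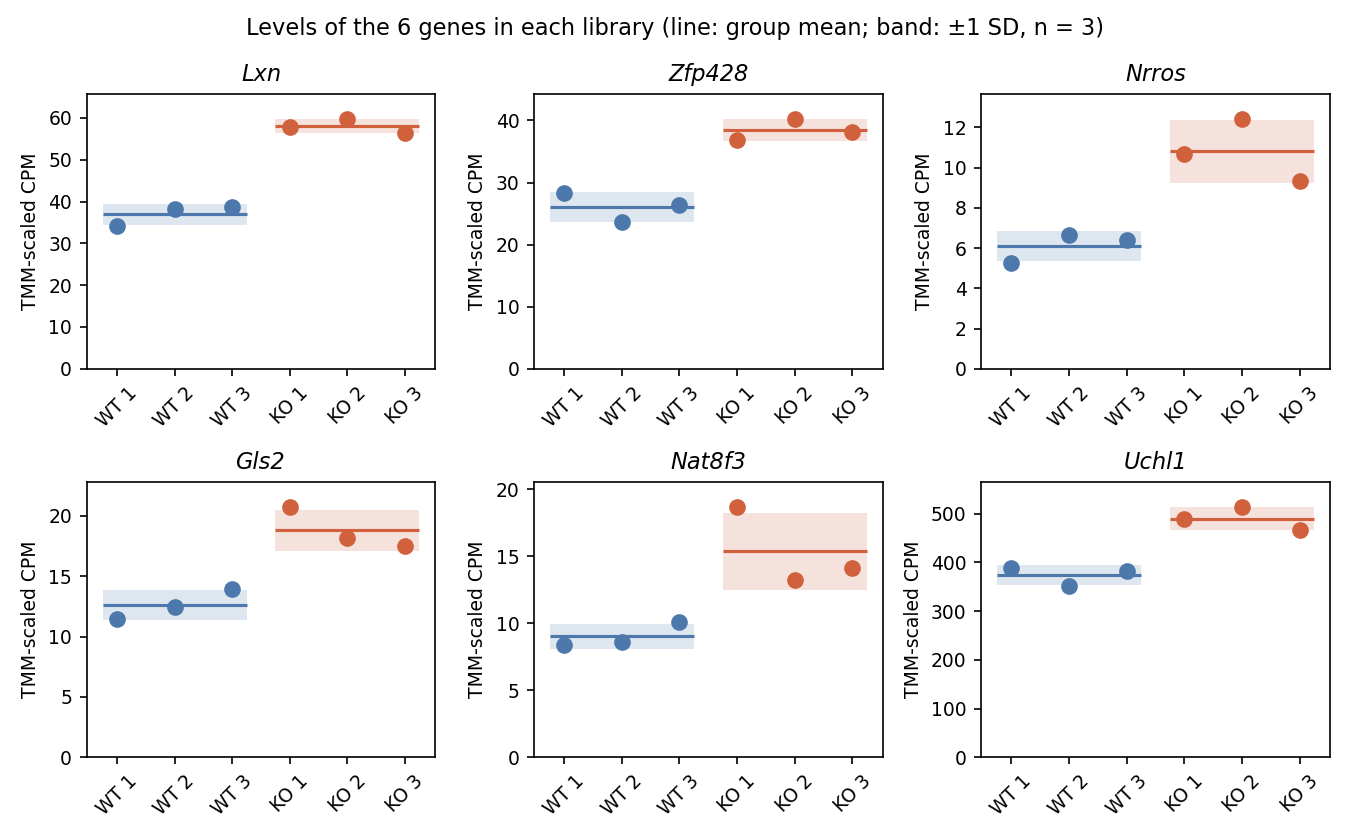
TMM-scaled CPM of each of the 6 genes in the 3 WT libraries (blue) and the 3 libraries labelled KO (orange), on linear axes that start at 0. Lines are group means and bands ±1 SD (n = 3). In each panel every orange point lies above every blue point, as the choice of genes requires, with the widest relative gap in Lxn (1.46 times) and the narrowest in Uchl1 (1.20 times).

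All 6 genes lay above WT without overlap because they were chosen for it. Of all 15126 genes tested, 1210 (8.00%) did so in scaled CPM and 827 (5.47%) in the summed counts that the choice used, while 1322 (8.74%) were lower without overlap in scaled CPM. Of all genes, 215 (1.42%) were higher without overlap and had a log2 fold change at least as large as that of Uchl1. Ranked by edgeR p among those 1210, Lxn came 1st, Zfp428 3rd, Nrros 4th, Gls2 5th, Nat8f3 6th and Uchl1 24th, with Zhx2 in 2nd place. For the 6 genes this order restates the contrast used to choose them and carries no test. Just before Uchl1 stood Rad52, with a log2 fold change of 0.45 and a lowest KO-labelled value 1.21 times the highest WT value. Just after it stood Coq2, with 0.48 and 1.15 times. Between Nat8f3 and Uchl1 the first places were taken by Trim47 (log2 fold change 0.75), Nol12 (0.48), Cgref1 (0.59) and Scrg1 (0.47). The 6 were not the genes with the largest fold changes: 191 genes had a larger log2 fold change than Nrros and 937 a larger one than Uchl1.

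**Figure D2:**
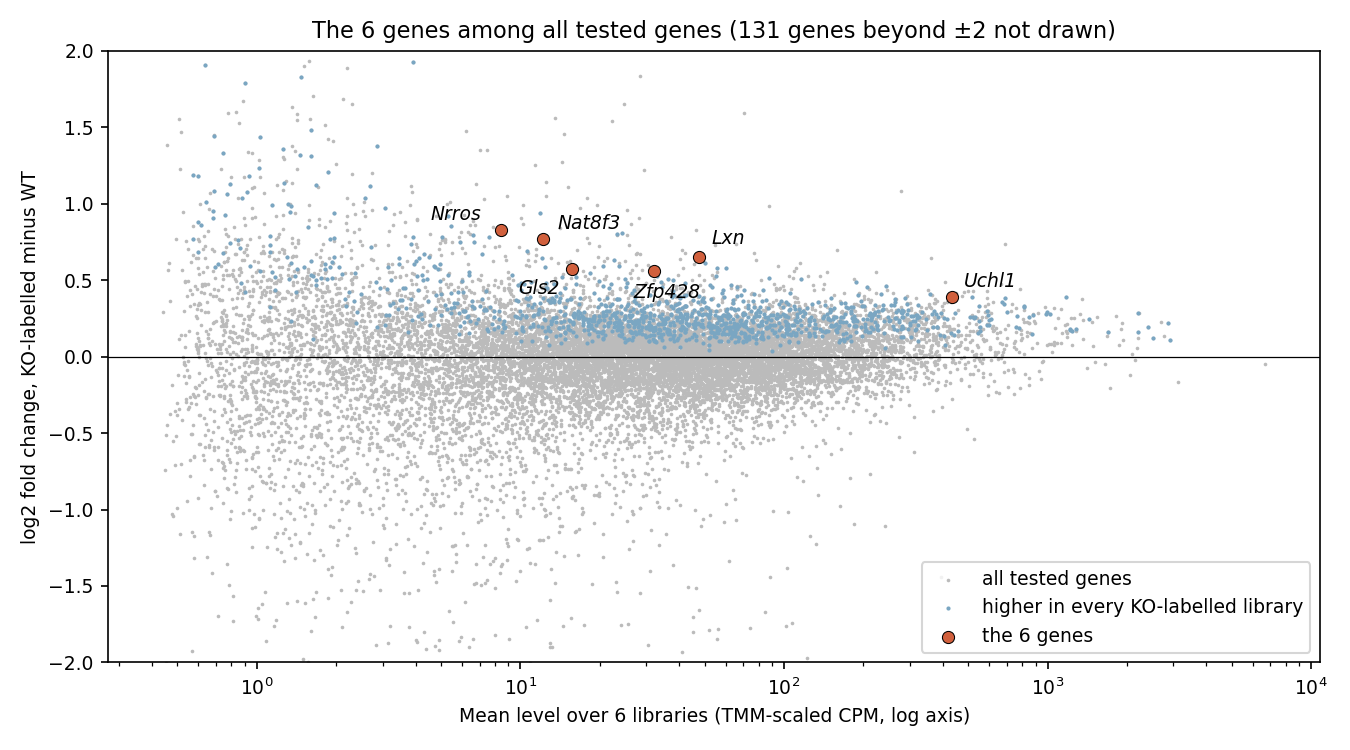
Mean level over the 6 libraries (CPM, log axis) against the log2 fold change of KO-labelled minus WT libraries for the 15126 genes tested, with 131 genes beyond ±2 not drawn. Pale blue points are the 1210 genes higher in every KO-labelled library and orange points the 6 genes, which lie between 0.39 (Uchl1) and 0.83 (Nrros) and span the range from weakly to strongly expressed genes.

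Levels of different genes were compared per transcript length, with the deposited FPKM summed over a gene's transcripts. In WT libraries Uchl1 was at 335 ± 28.2 FPKM, Lxn at 34.8 ± 1.47, Zfp428 at 22.9 ± 2.92, Nat8f3 at 5.21 ± 0.753, Gls2 at 5.16 ± 0.464 and Nrros at 2.32 ± 0.194 FPKM (SD, n = 3). The order was the same in KO-labelled libraries, at 430.4 ± 23.0, 53.7 ± 1.98, 33.2 ± 1.87, 9.31 ± 1.57, 7.56 ± 0.580 and 4.32 ± 0.661 FPKM (SD, n = 3). Nat8f3 and Gls2 overlapped in both groups, while every other pair of neighbours in the order was separated in each group.

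The counts of 4 of the genes are split over several RefSeq transcripts, and how they split was not used to choose the genes. A test of transcript usage in edgeR, fitted over the 8965 genes with 2 or more tested transcripts, called 126 genes (1.41%, with 533 or 5.95% at an unadjusted p under 0.05), and 0 of these 4, none of which had an adjusted p under 1. Over 9 alternatives the edgeR or limma adjusted p was at least 0.0518 for Zfp428 (without WT 1), 0.0585 for Nrros (without KO 2), 0.317 for Gls2 and 0.394 for Nat8f3. On simulated counts with the spread of these libraries the test recovered few of the genes whose usage was changed, and most of the genes it called there were false. A miss thus says little, and the 126 calls are not a count of genes with changed usage.

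Within that limit, the estimated splits were as follows. In Gls2 the transcript NM_001033264.3 held 60.1%, 53.5% and 100% of counts in WT 1 to 3, compared with 100%, 100% and 85.7% in KO 1 to 3. The second Gls2 transcript, NM_001285779.1, had 84.6, 96.5 and 0 counts in WT 1 to 3, compared with 0, 0 and 42.7 in KO 1 to 3, so WT 3 resembled KO 1 and KO 2 in this respect. Both Gls2 transcripts have the same GENCODE transcript as their match, so how counts divide between them is uncertain. In Nat8f3 the transcript XM_017321841.1 had 9.58, 1.81 and 29.7 counts in WT 1 to 3, compared with 63.9, 39.5 and 68.7 in KO 1 to 3. The other transcript, NM_001037842.3, with 146, 141 and 144 counts against 253, 191 and 173, was also higher in every KO-labelled library. As estimated, both transcripts of Nat8f3 thus lay above WT. NM_001037842.3 holds most of the counts, so the choice of the gene largely fixed its direction. With 85.2% of stretches of read length in the main transcript shared with other genes, these counts are uncertain too.

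In Zfp428 the main transcript, NM_146183.2, took 59.8% ± 2.62 of counts in WT and 59.9% ± 14.0 in KO-labelled libraries (SD, n = 3). The transcript NM_001290461.1 had 15.7, 0 and 0 counts in WT 1 to 3, compared with 95.2, 108 and 55.1 in KO 1 to 3. The second most abundant one, NM_175142.1, took 36.1% ± 4.07 and 20.1% ± 9.25 (SD, n = 3). NM_001290461.1 and NM_175142.1 have the same GENCODE transcript as their match, and their shares moved in opposite directions. How counts divide between them is therefore uncertain. In Nrros the transcript XM_006522076.2 had 43.9, 70.9 and 69.4 counts in WT 1 to 3, compared with 136, 162 and 98.3 in KO 1 to 3, and it was the only one of 6 listed that was higher in each KO-labelled library. The transcript NM_146069.4 had 16.9, 34.3 and 22.4 counts in WT 1 to 3, compared with 4.41, 15.6 and 25.4 in KO 1 to 3, so that the higher total of Nrros lay mainly in 1 predicted transcript.

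**Figure D3:**
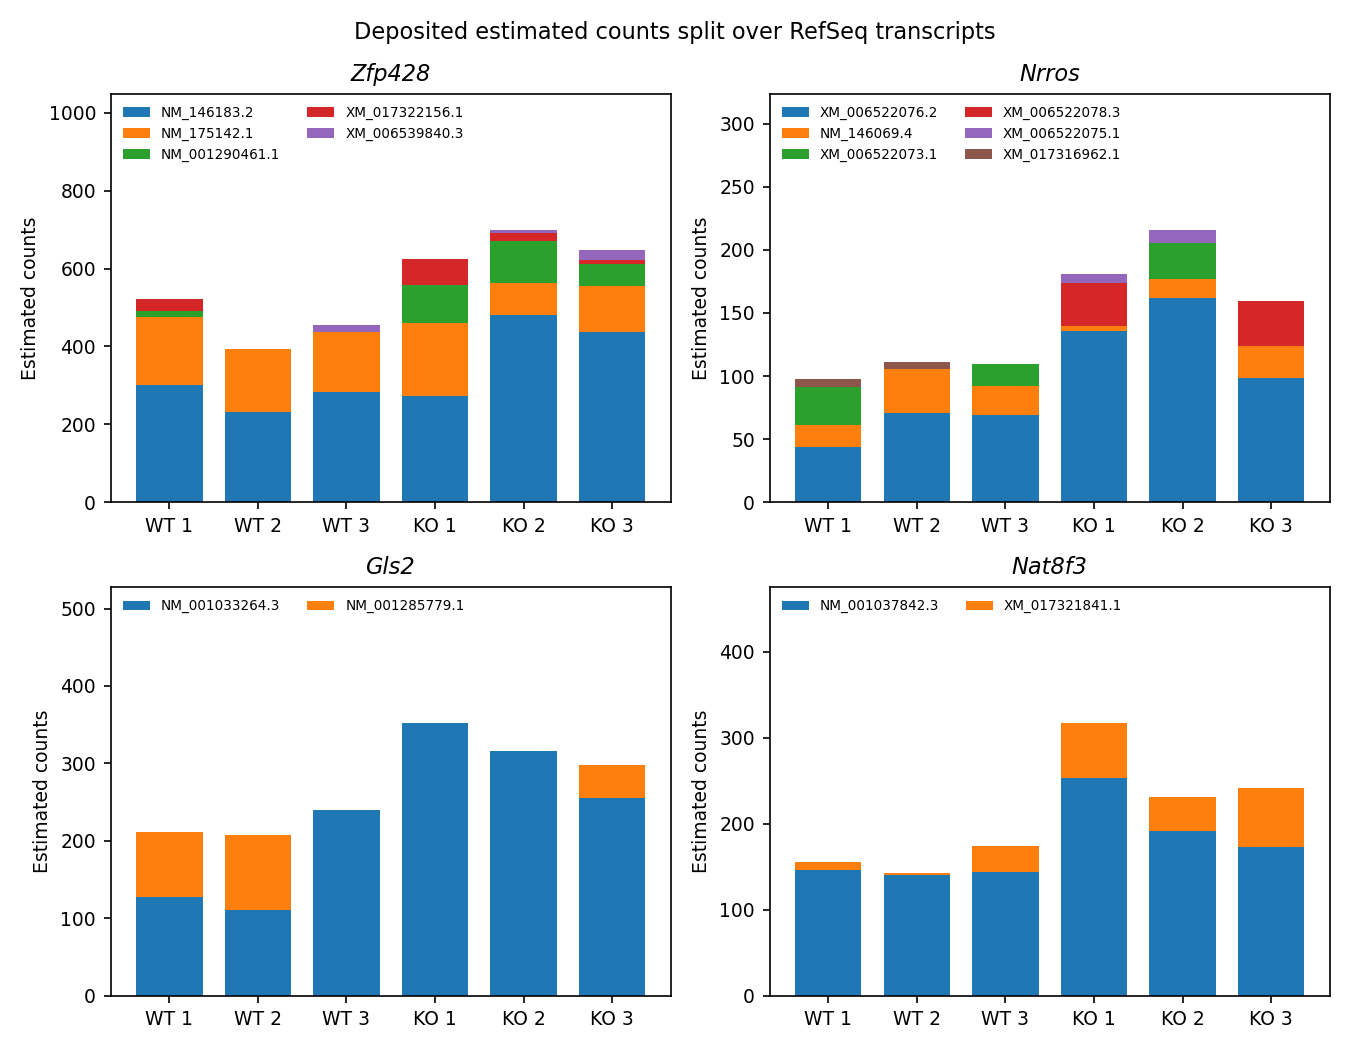
Deposited estimated counts of Zfp428, Nrros, Gls2 and Nat8f3 in each library, stacked by RefSeq transcript on axes that start at 0. One Zfp428 transcript with at most 0.08 counts in a library is not drawn. In Gls2 the second transcript is seen in WT 1 and WT 2 (84.6 and 96.5 counts) and in KO 3 (42.7 counts), and in Zfp428 NM_001290461.1 has at least 55.1 counts in KO-labelled libraries and at most 15.7 in WT. The splits are uncertain estimates: both Gls2 transcripts share a GENCODE match, as do NM_001290461.1 and NM_175142.1 of Zfp428.

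Genes next to the 6 on the chromosome were tested in the same edgeR fit. Of 24 flanking genes, the 2 nearest tested genes on each side, 13 had positive and 11 negative log2 fold changes, with a median of 0.04 against 0.02 over all genes. In edgeR 0 passed (1 at an unadjusted p under 0.05), and DESeq2 called 1. That gene was Mlf1, which lies near Lxn and was lower: 9.58, 6.60 and 5.11 CPM in WT 1 to 3, compared with 2.77, 3.05 and 2.29 CPM in KO 1 to 3. Its log2 fold change of -1.39 (SE 0.28) had an adjusted p of 0.201 in edgeR, and ependymal markers, 12 of 12 with negative log2 fold changes and summed levels between 217 and 310.5 CPM in WT, against between 106 and 154 CPM in the libraries labelled KO, had the same sign. Their part in Mlf1 was not tested. Gfm1, which encodes a mitochondrial elongation factor and overlaps Lxn on the other strand, was at 44.2 ± 1.25 CPM over the WT libraries and 40.3 ± 5.44 over those labelled KO (SD, n = 3). Spryd4, which overlaps Gls2 on the other strand, was at 5.90 ± 0.527 and 6.95 ± 0.713 CPM (SD, n = 3). Shared exon bases made up 4.18% of those of Lxn and 2.79% of those of Gls2. Beside Nrros, Cep19, Pigx, Fbxo45 and Wdr53 had log2 fold changes between -0.01 and 0.23, and beside Zfp428, Plaur, Cadm4, Irgq and Xrcc1 had values between 0.04 and 0.39. Beside Uchl1, Nsun7, Apbb2, Limch1 and Tmem33 were all between -0.25 and -0.02. Rbms2 and Baz2a, before Gls2, had -0.14 and -0.25, Timeless, after it, had -0.38, and around the Nat8 cluster Alms1 had -0.30 and Nat8f5 had 0.06.

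**Figure D4:**
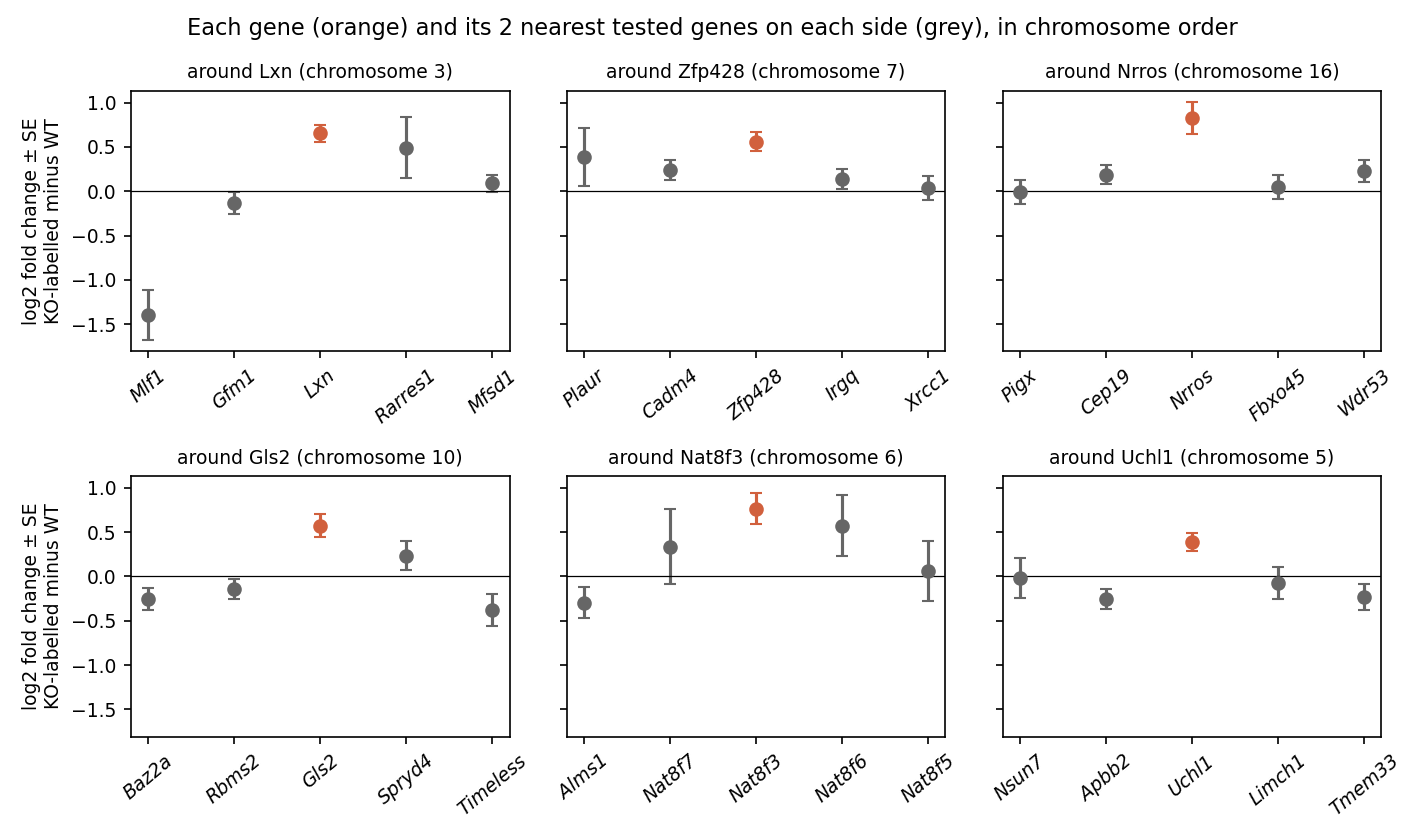
log2 fold change (KO-labelled minus WT, ± SE) of each of the 6 genes (orange) and of its 2 nearest tested genes on each side (grey), in chromosome order and not to distance. The orange points lie between 0.39 and 0.83, above 0 as the choice of genes requires. The 24 grey points, not chosen in that way, scatter around 0, from -1.39 (Mlf1) to 0.57 (Nat8f6).

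Over the 6 libraries the genes fell into unlike patterns within each group. Lxn, Nrros, Gls2 and Nat8f3 were lowest in WT 1, while Zfp428 and Uchl1 were lowest in WT 2. Lxn, Zfp428, Nrros and Uchl1 were highest in KO 2, while Gls2 and Nat8f3 were highest in KO 1. Likeness was measured as the root mean square difference of log2 CPM, each gene centred on its own mean over the 6 libraries, so that 0 means identical profiles. Among the pairs of these genes it was smallest for Lxn with Gls2 (0.09) and Zfp428 with Uchl1 (0.10), and largest for Nrros with Uchl1 (0.27).

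Among 12059 other named genes with a mean of at least 5 CPM, those most like Lxn were Cgref1 (0.09), Degs2 (0.10) and Zhx2 (0.11), where the median gene was at 0.37. Zhx2 was thus the third nearest profile to Lxn, and it did not appear among the 3 nearest of any other of these genes. Those most like Zfp428 were Rpp25 (0.07), Scrg1 (0.08) and Tango2 (0.10). Cgref1 (0.14), Pglyrp1 and Angptl6 (both 0.16) were most like Nrros. H1f10, Foxo6 (both 0.09) and Cgref1 (0.10) were most like Gls2. Foxo6 (0.14) and Poc1a (0.15) were most like Nat8f3. Acot9, Tango2 (both 0.03) and Cfp (0.04) were most like Uchl1. Cgref1, which stood among the nearest for 3 of the 6, was at 16.4 ± 2.12 CPM over the WT libraries and 24.7 ± 2.33 over those labelled KO (SD, n = 3). With 6 libraries and a difference between the groups in each of the 6 genes, any gene of similar fold change comes close, and nothing is drawn from these lists about function or control.

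The marker lists place these profiles beside the makeup of the dissected tissue. Within WT, choroid plexus markers were highest in WT 1 (17388 CPM), then WT 2 (12489 CPM) and WT 3 (3685 CPM), and Lxn, Gls2 and Nat8f3 took the reverse order. In KO 1 to 3 the markers summed to 56.0, 206 and 91.6 CPM. There Nat8f3 again took the reverse order, while Lxn and Gls2 did not, Lxn being highest in KO 2. Markers of striatal projection neurons summed to 571, 8495 and 2443 CPM in WT 1 to 3 and to between 3838 and 4944 CPM in KO-labelled libraries, so the WT libraries spanned the wider range. Oligodendrocyte markers ranged from 8421 CPM in KO 3 to 19462 CPM in KO 1. Astrocyte and quiescent stem cell markers had 9 positive and 3 negative log2 fold changes and summed to between 4248 and 5514 CPM in WT, against between 5079 and 5712 CPM in the libraries labelled KO. Neuroblast markers had 6 of each sign and activated progenitor markers 2 positive and 6 negative. The part of these differences in makeup in the levels of the 6 genes was not tested.

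**Figure D5:**
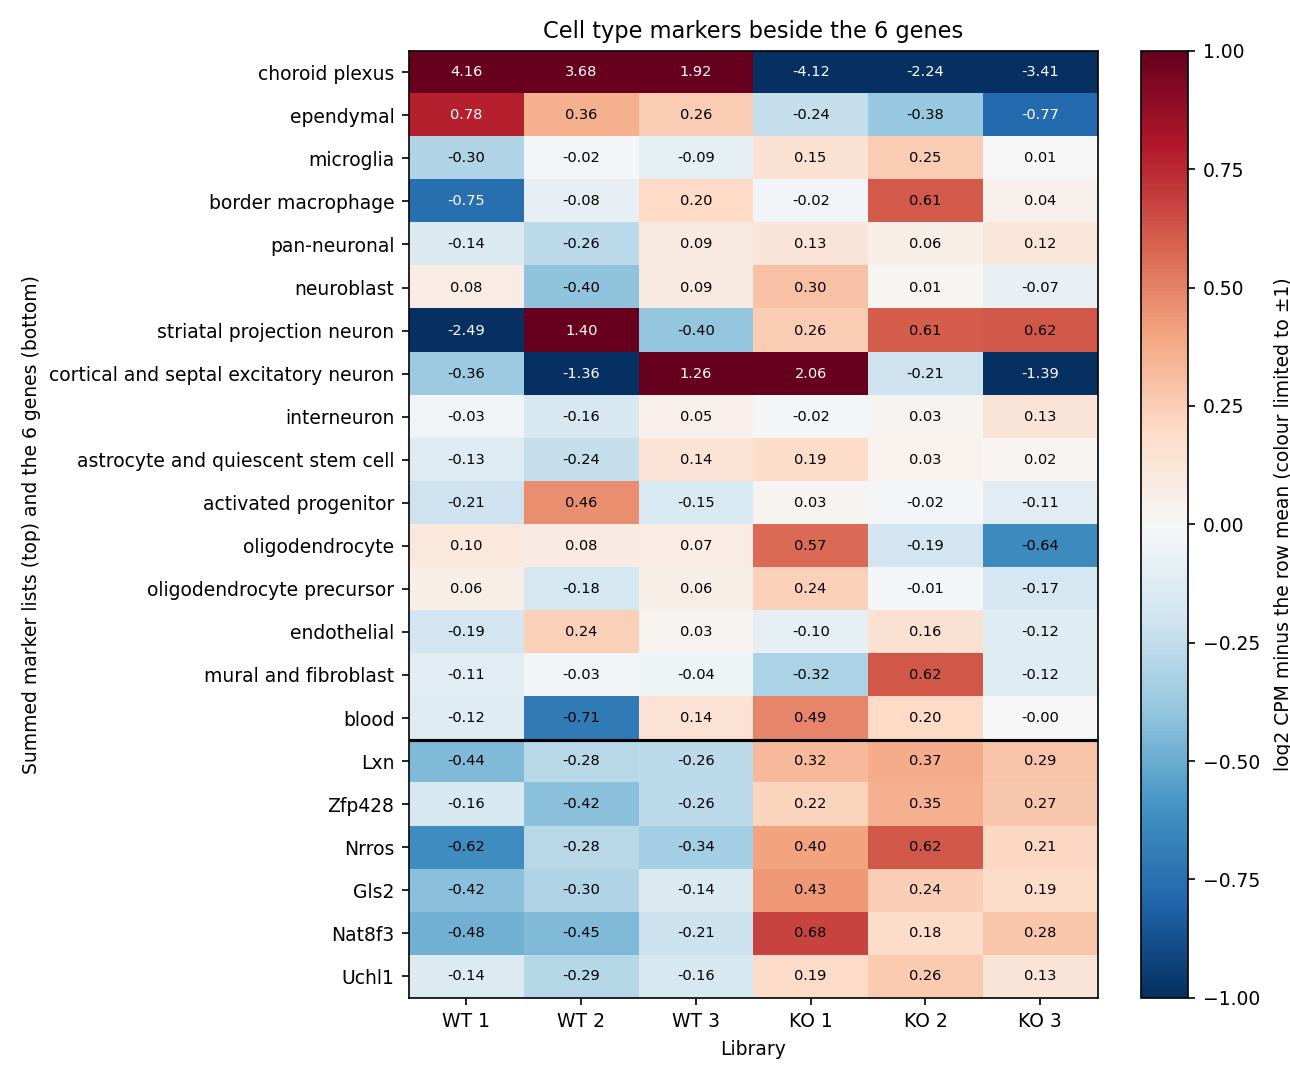
Summed level of each marker list (upper rows) and level of each of the 6 genes (lower rows) in each library, as log2 CPM minus the mean of its row, with the value printed in each cell and colours limited to ±1. The microglia row runs from -0.30 in WT 1 to 0.25 in KO 2, the libraries in which Nrros was lowest and highest, while the choroid plexus row falls from between 1.92 and 4.16 in WT to between -4.12 and -2.24 in KO-labelled libraries.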

How the data were processed

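SVZ RNA from 3 WT and 3 KO-labelled libraries, grouped by title, was sequenced as paired reads of 50 bases. For each of 61481 RefSeq transcripts the authors deposited an estimated count and a value that behaves as FPKM (count over transcript length and library total, from the deposited numbers themselves). The submitters' processing notes name the build mm10 and limma 3.40.6. No aligner or quantification tool is given in the sources used here.

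Counts of the transcripts of each NCBI gene were added and rounded, which gave 18614 genes, of which the RefSeq table (GRCm38.p6) named 18489. With totals of 17037152 to 17685906, a floor of 3 counts lay between 0.170 and 0.176 CPM, for counting error only. The gene test was edgeR 4.0.16 in R 4.3.3: filterByExpr at a minimum count of 10, TMM, and a robust two-sided quasi-likelihood F test on group, with Benjamini-Hochberg adjustment over 15126 genes at 0.05. Standard errors follow from its F statistic. Transcript usage was tested with diffSpliceDGE from the same package. Alternatives were DESeq2 1.42.0, limma 3.58.1, other scalings and filters, a replicate block and libraries left out. The sum of Nat8f3 with Nat8f6 and Nat8f7, and the octamer motif, were added after seeing the data. All procedures were tested on simulated data. Overlaps and shared stretches of 50 bases came from GENCODE M21.

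The 6 genes, the lists and the tests were chosen with earlier results of these data known. Genes were named by rule: the 6 genes, Zhx2, flanking genes, the 3 with the smallest p of each family list, the 3 most alike, and neighbours in rank, of which 1 has no symbol and is not printed. Some genes that the rule names are not reported here.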

Additional observations from a re-analysis of the deposited data

How the results depend on the processing

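All 6 genes kept a positive log2 fold change under each of 15 alternatives, which their choice largely fixed in advance. In all but 2 cases the value moved by less than the spread within groups. The exceptions were Gls2 (0.72) and Nat8f3 (1.05) with KO 1 alone against WT. With single libraries left out, the value was between 0.60 and 0.69 for Lxn, 0.48 and 0.62 for Zfp428, 0.71 and 0.92 for Nrros, 0.50 and 0.65 for Gls2, 0.60 and 0.86 for Nat8f3, and 0.33 and 0.42 for Uchl1. Over all genes edgeR called 0, DESeq2 311, and edgeR without single libraries between 0 and 137, the last without WT 3 and all lower. Among listed relatives DESeq2 called 2 and among flanking genes 1, where edgeR called 0 under every scaling, filter and library left out. Transcript usage was called in 126 genes, in 23 with limma's diffSplice, in 35 with transcripts under 10% of a gene's counts left out, and in between 158 and 255 (without KO 3) with single libraries left out. The replicate block gave 0 genes at the gene level and 11 for transcript usage. Libraries of the same number had correlations of their deviations from the group mean between -0.16 and -0.04, and none correlated best with its own number. With 3 libraries per group, these values cannot tell whether equal numbers mark pairs. In the whole window of the promoter table, with 50 bases after the start, TATAAA was found in 1 of the 5 promoters instead of 0. The cause of these differences was not tested. Nrros, with at most 216 counts in a library, is the least precisely measured of the 6 genes by counting.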
